A study of Mus musculus with 57 samples.

Results

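The comparison described here set late 2-cell mouse embryos (L2-cell) against early 2-cell embryos (E2-cell) in total RNA sequencing of normal preimplantation development. Its members were all rows of the deposited expression table with at least 1 FPKM in 2 or more of the 4 columns of these stages, which were 14722 of 59119 rows. FPKM values count sequenced fragments per kilobase of a transcript, relative to the size of the library, so that levels can be compared between genes. Each stage had 2 samples, labelled replicate 1 and replicate 2, of wild type C57BL/6 embryos, with about 150 to 200 embryos pooled in each. Eggs were fertilized in vitro with sperm of BDF1 males after a hole had been made in the zona pellucida, and embryos grew in G-1 PLUS medium. No injection is listed for these samples, although the protocol text attached to all samples of the series also describes injected oocytes. Nothing in the labels says that the replicates came from separate cultures, so the spread between them may be technical. Unless another fit is named, the p-values below rest on the spread between replicates in all stages fitted, not only in these 2-cell samples. The other samples of the series cover the stages from the MII oocyte (an egg arrested at the second meiotic metaphase) to the blastocyst and 2 experiments on injected embryos.

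A mouse egg carries a large store of RNA made during oocyte growth, and the embryo at first lives on that store. Most of the egg's messengers are then cleared while the embryo's own genome starts to be read, first weakly and promiscuously and then, during the second cell cycle, in the major wave of zygotic genome activation. The early 2-cell embryo is known for a short burst of 2-cell genes, many of them near MERVL retroviral repeats, such as the Zscan4 and Usp17l families, and the late 2-cell embryo for the start of genes that every growing cell needs.

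Both stages had the oocyte and 2-cell transcripts that their labels call for. Among 7 genes fixed as markers of the 2-cell embryo, 6 stood above 5 FPKM in all 4 columns, the exception being Duxf3 at 9.27 and 9.05 FPKM early and 0.534 and 0.464 FPKM late. None of the 5 blastocyst markers (Cdx2, Gata3, Krt8, Krt18, Spp1) was a member, and their summed level was 2.91 and 3.37 FPKM early and 0.441 and 0.462 FPKM late. Of 12 markers of cumulus and granulosa cells, the cells that surround an egg, only the estrogen-producing enzyme Cyp19a1 was a member, at 5.26 and 4.94 FPKM early and 0.354 and 0.651 FPKM late, while Ptx3, Cd44 and Inhba were at 0 in all 4 columns. Of 7 sperm and testis markers only the protamine Prm2 was a member, at 2.48 and 2.16 FPKM early and 0 and 0 FPKM late. The part of these low signals in the results was not tested. Between 12540 and 12892 rows reached 1 FPKM in a column, and the 2 columns of a stage correlated at r = 0.98 (early) and 0.97 (late) across members on the log2 scale, which describes genes and not independent replicates. The absolute read depth is unknown because the table gives no counts. Relative to early replicate 1, ratios of low values that recurred across rows put the depth at 1.19 for early replicate 2, 1.10 for late replicate 1 and 1.32 for late replicate 2, an estimate that rests on 29, 20 and 15 rows. FPKM of small RNAs made up 41.1% and 42.3% of the column sum early against 46.8% and 60.1% late, and nuclear coding genes 39.7% and 39.4% against 27.3% and 21.6%. Both early columns carry the tag b2 in their names and both late columns the tag b3. What the tags mean is not stated, and tag and stage cannot be told apart. In pooled embryos, fewer cells with a transcript and less transcript per cell cannot be told apart either.

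Between the early and the late 2-cell stage most of the expressed transcriptome changed. Of the 14722 members, 11240 (76.3%) were called at an adjusted p under 0.05 with limma and Benjamini-Hochberg adjustment, against 68.7% of all 19692 rows tested across the 8 stages. Lower levels in late embryos were called for 6156 members (41.8%) and higher levels for 5084 (34.5%), against 37.6% lower and 31.1% higher over all rows tested, and the median member changed by -0.20 on the log2(FPKM + 0.5) scale. The rises were steeper than the falls: 753 members rose by at least 8-fold on that scale and 259 fell by as much, and at 32-fold the counts were 71 and 4. The level filter shapes these counts. The 2057 members that reached 1 FPKM in both late columns and neither early column could scarcely fail to be higher, and 2026 of them were called so. Of the 9255 members at 1 FPKM or more in all 4 columns, 2705 were called higher and 3633 lower, with a median change of -0.19. FPKM are shares of a library, and a change of total RNA per embryo is not visible in them. Scaling columns to equal sums over coding genes moved the median change by 0.24 and gave 5650 higher and 5453 lower, whereas scaling by the median of ratios moved it by -0.13 and gave 4806 and 6637. The 2 columns of early embryos lay wholly above or wholly below those of late embryos in 88.9% of members, and in every called gene that is named below. For the genes named only as the steepest changes, this was a condition of naming.

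**Figure D1:**
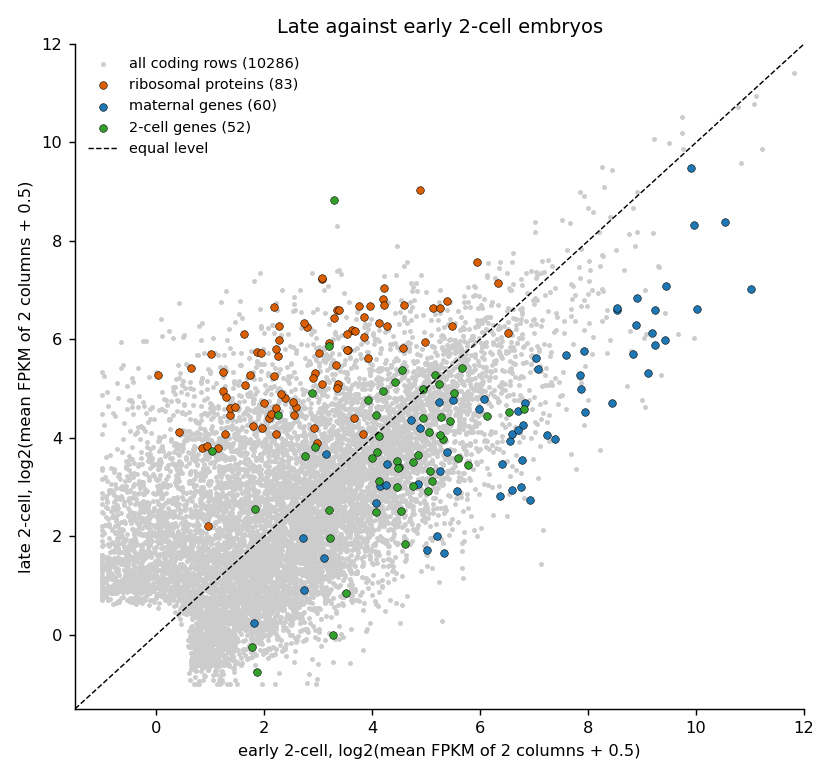
Each point is a coding row, with its level in early (x axis) and late (y axis) 2-cell embryos as log2(mean FPKM of 2 columns + 0.5). The grey cloud is all 10286 coding members, the dashed line marks equal levels, and the coloured points show 83 ribosomal protein genes, of which 81 rose, 60 maternal genes, of which 55 fell, and 52 genes of the 2-cell list on both sides of the line.

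The classes of transcripts differed in direction. Of 10286 coding members 75.6% were called, 3658 (35.6%) as higher and 4114 (40.0%) as lower. Annotated long noncoding RNAs (lncRNAs) fell in 526 of 944 cases and rose in 264, with a median log2 change of -0.97. Unannotated loci, named XLOC by the authors' transcript assembly and without a position in the table, fell in 1132 of 1877 cases and rose in 471 (median -1.02). Pseudogene rows showed the opposite balance, with 496 of 1105 higher, 342 lower and a median of 0.34, and small RNA rows were higher in 190 of 492 cases and lower in 29 (median 0.87).

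The fallen and the risen rows had different histories in the stages outside the comparison. Of the 4114 fallen coding rows 3919 (95.3%) were already at 1 FPKM or more in both MII oocyte columns, beside 2315 of 2514 uncalled coding rows (92.1%), and the median level of the fallen rows ran from 10.2 FPKM in MII oocytes and 10.3 FPKM in zygotes to 8.14 FPKM early and 2.75 FPKM late. After that it was 2.33 FPKM in 4-cell embryos, 1.89 FPKM at the 8-cell stage, 1.65 FPKM in morulae and 2.61 FPKM in blastocysts. Of the 3658 risen coding rows 2348 (64.2%) were present in both MII columns and 1104 (30.2%) were under 1 FPKM in every MII and zygote column. Their median was 2.49 FPKM in MII oocytes, 1.80 FPKM early and 8.71 FPKM late, then 13.1 FPKM at the 4-cell stage and 10.3 FPKM in blastocysts. Risen noncoding loci were mostly under 1 FPKM in the egg, and their medians declined again before the blastocyst. Of 264 risen lncRNAs 218 (82.6%), and of 471 risen XLOC loci 423 (89.8%), were under 1 FPKM in all MII and zygote columns. So were 57 of 154 uncalled lncRNAs (37.0%) and 151 of 274 uncalled XLOC loci (55.1%). The median of the risen XLOC loci was 3.15 FPKM late, 1.66 FPKM at the 4-cell stage and 0.0655 FPKM in blastocysts. These levels describe other samples and were not tested.

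**Figure D2:**
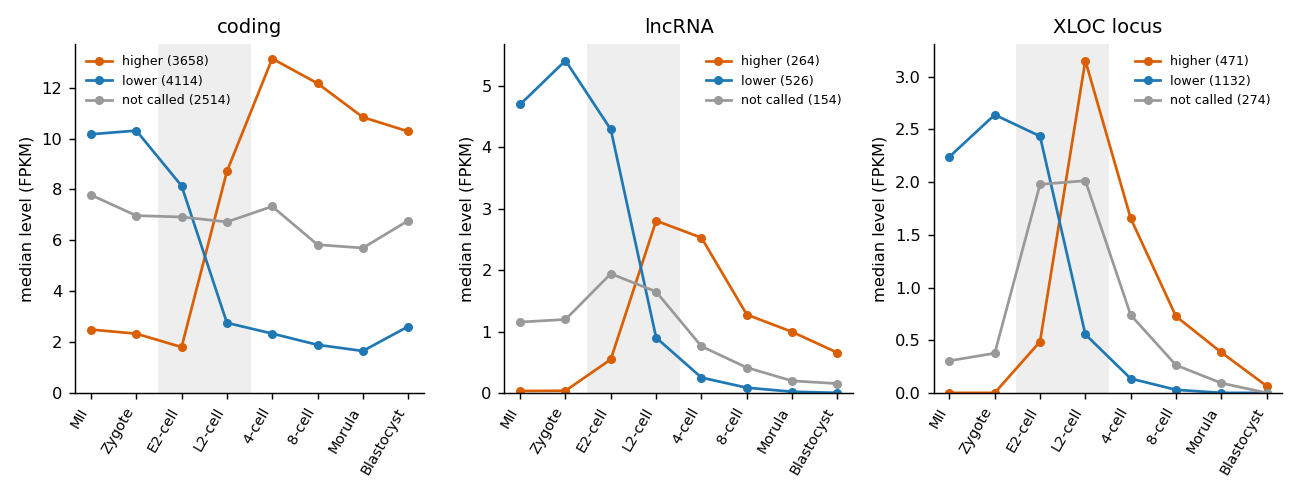
Median level in FPKM (y axis) at each of the 8 stages (x axis) of coding rows, lncRNAs and XLOC loci that were called higher, called lower or not called between early and late 2-cell embryos (shaded). Numbers in the key count rows. Risen coding rows had a median of 8.71 FPKM in late 2-cell embryos and above 10 FPKM from the 4-cell stage to the blastocyst, whereas risen XLOC loci peaked at 3.15 FPKM in late 2-cell embryos.

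Maternal genes, a list of 60 known oocyte genes, fell almost throughout: 55 fell, none rose and 5 were not called, with a median log2 change of -2.24. At the stages outside the comparison their median level was 203 FPKM in MII oocytes and 192 FPKM in zygotes, and it went from 109 FPKM early to 21.3 FPKM late. All of the 60 genes were members, and 59 of them had 1 FPKM in every column. The anti-apoptotic Bcl2l10 (chromosome 9, 75347758 to 75351632, plus strand, GRCm38) was among the most abundant, at 2170.3 and 1966 FPKM early and 124 and 136 FPKM late. That is a log2 change of -3.99 ± 0.28 (SE), adjusted p = 2.6e-07, with the late columns far below the early ones. Kpna7, the importin alpha of oocytes, had the steepest fall of the list, from 124 and 118 FPKM early to 6.03 and 6.41 FPKM late (-4.17 ± 0.25 (SE), adjusted p = 6.9e-08). The oligoadenylate synthetase relatives of the egg fell with them, as Oas1d at 565 and 543 FPKM early and 37.2 and 41.2 FPKM late shows (log2 change -3.81). All 5 Oas1 members and all 11 Nlrp members fell, the latter with log2 changes from -3.76 to -1.38, and Nlrp9b had 100.4 and 116 FPKM early and 7.82 and 7.20 FPKM late. In both families reads may be shared between near-identical copies. The poly(A)-binding proteins of the oocyte, Pabpc1l and Pabpn1l, changed by -3.65 and -3.68.

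The 5 maternal genes without a call were not all alike. Dppa3, which guards the maternal genome against loss of methylation, had 955 and 958 FPKM early and 649 and 773 FPKM late, a log2 change of -0.43 that was not called (adjusted p = 0.11, limma). Its zygote columns were far apart, at 1350 and 794 FPKM, but leaving the zygote out did not settle the call: with limma the adjusted p of Dppa3 was 0.0085 in the fit of the other 7 stages and 0.088 with the 2 stages fitted alone, and from 0.073 to 0.49 over all alternatives but the former. Cd9, a sperm-egg fusion protein, had 8.84 and 7.98 FPKM early and 12.7 and 11.9 FPKM late and a log2 change of 0.52 (adjusted p = 0.54), again with zygote columns far apart at 1.88 and 22.8 FPKM. Without the zygote its adjusted p was 0.00025 with limma. The zona pellucida genes, which encode the coat of the egg, had changes smaller than the list median: Zp1 by 0.80 and Zp2 by 1.3 on the log2 scale, while Zp3 had 21.5 and 30.3 FPKM early and 20.3 and 19.9 FPKM late and was not called. Of the secreted oocyte factors, Bmp15 went from 686 and 702 FPKM early to 138 and 134 FPKM late (log2 change -2.35) and Gdf9 by -1.41.

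**Figure D3:**
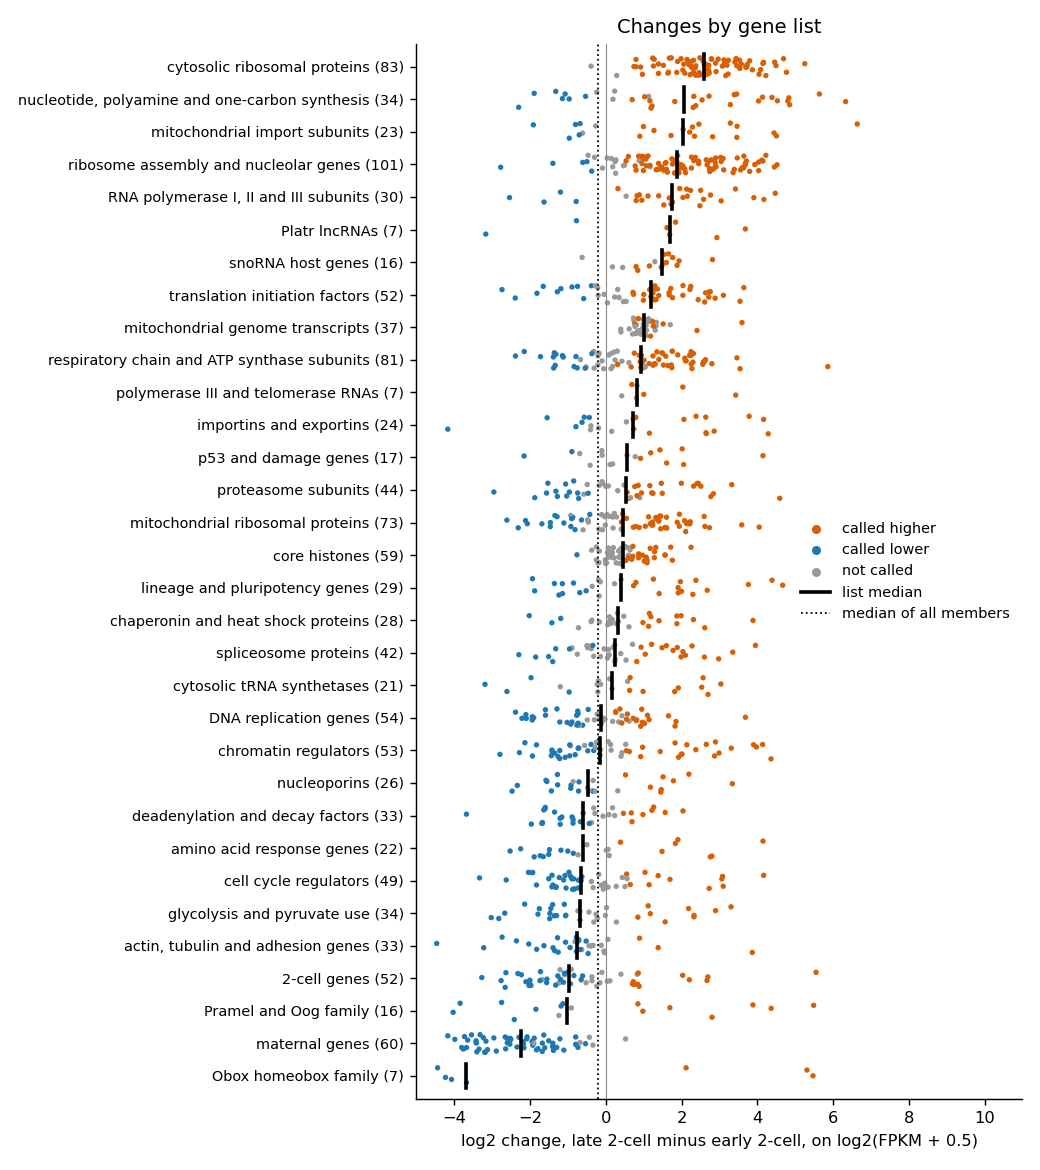
Each point is a member of a gene list (y axis, with the number of members), placed by its log2 change from early to late 2-cell embryos (x axis, on log2(FPKM + 0.5)); vertical spread within a list is only to separate points. Black bars are list medians and the dotted line is the median of all members at -0.20; ribosomal protein genes have the highest list median at 2.60, and the Obox family the lowest at -3.68.

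Genes of messenger decay were mixed. Of 36 listed deadenylation and decay factors 33 were members, and 18 fell, 8 rose and 7 were not called (median -0.60). Cnot7, a catalytic deadenylase of the CCR4-NOT complex that shortens poly(A) tails, had 114 and 104 FPKM early and 29.0 and 25.9 FPKM late (log2 change -1.97 ± 0.19 (SE), adjusted p = 3.3e-06). The decapping cofactors Edc4 and Dcp1a fell (log2 changes -1.69 and -1.68). Ythdf2, which binds methylated messengers and sends them to decay, moved the other way, with 10.9 and 12.2 FPKM early and 51.5 and 46.4 FPKM late (log2 change 2.04 ± 0.30 (SE), adjusted p = 9.7e-05). Cnot1, the scaffold of the complex, and the helicase Ddx6 rose by 1.26 and 1.22, so subunits of the same complex changed in opposite directions.

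2-cell genes split into groups. Of 52 listed genes, all of them members, 26 fell, 11 rose and 15 were not called, with a median of -0.96. In MII oocytes and zygotes their median level was 0.0628 and 0.122 FPKM, and it was 21.9 FPKM early, 12.8 FPKM late and 4.69 FPKM at the 4-cell stage. Falls included the Zscan4 family (4 of 5 members), telomere and heterochromatin factors of the early 2-cell burst, and the deubiquitinases of the Usp17l family (4 of 5). Zscan4d went from 56.8 and 51.3 FPKM early to 9.86 and 11 FPKM late (log2 change -2.32 ± 0.52 (SE), adjusted p = 0.002). Usp17le had 23.3 and 24.5 FPKM early and 3.37 and 2.83 FPKM late (log2 change -2.76), and its relative Usp17la changed by -2.66. In each of these genes both late columns lay below both early ones. Copies within these families are nearly identical, so a row's value may hold reads of its neighbours.

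A second set of 2-cell genes rose. Alppl2, an alkaline phosphatase on the cell surface (chromosome 1, 87086694 to 87089928, minus strand, GRCm38), stood at 9.75 and 8.78 FPKM early and 428 and 487 FPKM late, a log2 change of 5.55 ± 0.21 (SE), adjusted p = 3e-09. Of the 5 Tdpoz genes, which encode TRAF and POZ domain proteins, 4 rose and 1 fell. Tdpoz4 had 8.84 and 8.58 FPKM early and 59.5 and 56.9 FPKM late (log2 change 2.67), and Tdpoz1 and Tdpoz2 rose by 2.21 and 2.69. Zfp352, which encodes a zinc finger protein, fell by only 0.61 from 45.1 and 45.5 FPKM early to 31.5 and 27.5 FPKM late, and that call was lost when columns were scaled to equal coding sums (log2 change -0.36, adjusted p = 0.066, limma) and at a pseudocount of 0.1 FPKM. Tcstv3 had 40.3 and 30.8 FPKM early and 37.5 and 38.6 FPKM late and was not called, although its neighbour Tcstv1 fell by 1.98.

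**Figure D4:**
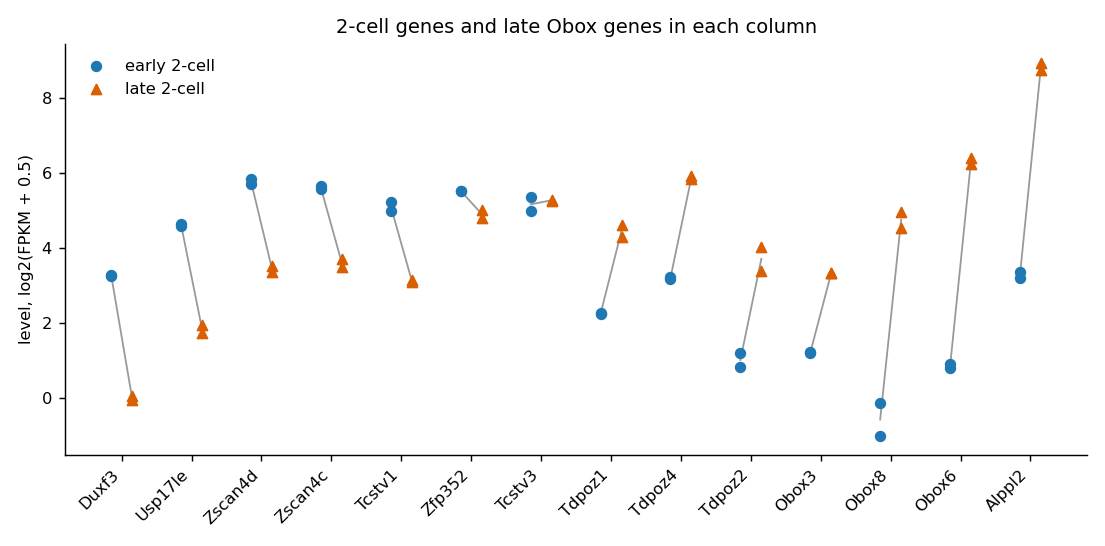
Level on the log2(FPKM + 0.5) scale (y axis) of 14 genes (x axis) in each early (circles) and late (triangles) column, with a line between the means. Duxf3, Usp17le, Zscan4d, Zscan4c and Tcstv1 lie lower in late embryos, Tcstv3 overlaps, and the Tdpoz genes, Obox3, Obox8, Obox6 and Alppl2 lie higher.

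The Obox homeobox family, factors that act at genome activation, had 4 members that fell and 3 that rose. All 7 coding Obox rows were members. Obox2 fell from 509 and 519 FPKM early to 24.4 and 29.6 FPKM late (-4.23 ± 0.25 (SE), adjusted p = 7.9e-08), and Obox5 and Obox7 by 4.07 and 3.68. Obox8 rose from 0 and 0.416 FPKM early to 30.5 and 22.7 FPKM late, a log2 change of 5.31 ± 0.24 (SE), adjusted p = 9.2e-09, and Obox3 from 1.79 and 1.85 FPKM early to 9.57 and 9.57 FPKM late (log2 change 2.12). Summed over the family, the level was 1818 and 1780 FPKM early and 212 and 213 FPKM late. The 18 Obox4 pseudogene rows fell as well, by 2.15 to 4.93 on the log2 scale. In the Pramel and Oog family, leucine-rich repeat genes of oocytes and early embryos, 7 of 16 members rose and 7 fell (median -1.02). Of the 11 at 1 FPKM or more in all 4 columns 2 rose and 7 fell (median -1.24). Oog4, an oocyte gene, went from 111 and 111 FPKM early to 6.12 and 6.57 FPKM late (-4.03) and Pramef20 changed by -3.85. Pramel6, known from naive pluripotent cells, went from 1.24 and 1.35 FPKM early to 36.9 and 36.0 FPKM late (4.37), and Pramel4 and Pramel5 rose by 3.88 and 2.80.

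Genes of the ribosome rose as a block. Of 84 listed genes of cytosolic ribosomal proteins 83 were members, 81 rose, none fell and 2 were not called (median 2.60). Their summed level was 1010 and 980 FPKM early and 4839 and 5517 FPKM late. Of the 83 members, 81 had at least 1 FPKM in all 4 columns, so few entered by their late level alone. Rps23 and Rps15 of the small subunit rose by 4.46 and 4.23, and Rps27 went from 0.352 and 0.703 FPKM early to 39.0 and 37.2 FPKM late. On the large subunit Rpl9 had 1.61 and 1.42 FPKM early and 51.1 and 51.9 FPKM late (log2 change 4.69 ± 0.11 (SE), adjusted p = 1.7e-10). The members that were not called were Rps15a at 17.1 and 10.5 FPKM early and 17.1 and 15.9 FPKM late and the p53-linked variant Rps27l at 97.6 and 84.6 FPKM early and 71.7 and 66.8 FPKM late. Ribosomal proteins have many processed pseudogenes, and reads may be split between a gene and its copies. Among 82 annotated ribosomal protein pseudogene rows 72 rose and 2 fell.

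The low early level was not the level of the egg. The median ribosomal protein gene stood at 24.8 FPKM in MII oocytes, 16.5 FPKM in zygotes and 7.13 FPKM in early 2-cell embryos, then at 51.5 FPKM late, 158 FPKM at the 4-cell stage and 262 FPKM in blastocysts.

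The machinery that makes ribosomes rose with them. Of 101 genes of ribosome assembly and the nucleolus 83 rose, 5 fell and 13 were not called (median 1.88); leaving out any 1 of the 4 columns left 1 to 3 that fell. Nop2, a ribosomal RNA methyltransferase, had 3.84 and 4.44 FPKM early and 103 and 109 FPKM late (4.52 ± 0.14 (SE), adjusted p = 7.8e-10). Ubtf, the factor that marks ribosomal DNA for RNA polymerase I, went from 1.20 and 1.70 FPKM early to 42.5 and 40.9 FPKM late, a log2 change of 4.45. The processome subunit Tbl3 and the assembly factor Nop9 rose by 4.15 and 4.23. Riok1, a kinase of the last steps of the small subunit, went against the list and fell from 50.3 and 49.2 FPKM early to 6.69 and 6.97 FPKM late (-2.78 ± 0.16 (SE), adjusted p = 6.4e-08). Of the 6 subunits that belong to RNA polymerase I alone all rose, by 1.53 to 4.47. Cd3eap, one of them, had 0.655 and 0.777 FPKM early and 26.2 and 26.7 FPKM late, and Polr1c, shared with polymerase III, had 3.16 and 2.42 FPKM early and 45.5 and 51.9 FPKM late (log2 change 3.91). Of the 10 subunits of polymerase III alone 8 rose and 2 fell, with Polr3e at 4.17 and Polr3g at 3.42. Of 7 subunits of polymerase II alone 4 rose and 2 fell: Polr2g fell from 55.2 and 47.6 FPKM early to 8.16 and 8.62 FPKM late (log2 change -2.54) and Polr2c by 1.63.

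To show the letters upstream of these groups, the promoters of the 3 steepest rises of the ribosome lists and the 3 steepest falls of the maternal list are printed, as far as the RefSeq table (GRCm38.p6) held a start site within 50 bases of the annotated 5' end. Each run is the 150 bases before the start, read 5' to 3' in the direction of the gene, with the letters searched for in capitals. The risen genes were Rps27 (chr3:90213649-90213798, minus strand), Rpl10l, a retrocopy relative of Rpl10 (chr12:66284402-66284551, minus strand), and Rpl9 (chr5:65391432-65391581, minus strand).
Rps27: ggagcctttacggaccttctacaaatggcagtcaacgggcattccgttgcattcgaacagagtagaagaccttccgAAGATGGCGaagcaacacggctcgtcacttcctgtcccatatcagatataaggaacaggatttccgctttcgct
Rpl10l: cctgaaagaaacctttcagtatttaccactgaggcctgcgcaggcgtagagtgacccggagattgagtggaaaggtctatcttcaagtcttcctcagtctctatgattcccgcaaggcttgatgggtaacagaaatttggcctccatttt
Rpl9: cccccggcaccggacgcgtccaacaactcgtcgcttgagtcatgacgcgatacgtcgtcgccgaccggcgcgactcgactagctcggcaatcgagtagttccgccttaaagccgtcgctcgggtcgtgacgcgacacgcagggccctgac
The fallen genes were Pabpn1l (chr8:122622736-122622885, minus strand), Nlrp4b (chr7:10687643-10687792, plus strand) and Nlrp4a (chr7:26434963-26435112, plus strand).
Pabpn1l: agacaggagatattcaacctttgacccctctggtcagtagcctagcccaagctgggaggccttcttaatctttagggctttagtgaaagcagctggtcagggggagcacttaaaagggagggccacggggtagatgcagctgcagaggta
Nlrp4b: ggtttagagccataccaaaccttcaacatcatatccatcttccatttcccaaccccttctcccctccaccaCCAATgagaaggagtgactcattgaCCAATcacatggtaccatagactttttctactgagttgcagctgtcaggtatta
Nlrp4a: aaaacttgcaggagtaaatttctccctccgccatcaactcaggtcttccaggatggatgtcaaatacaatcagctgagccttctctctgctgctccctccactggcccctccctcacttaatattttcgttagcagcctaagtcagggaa
The capitals in Rps27 mark AAGATGGCG, the YY1 letters, and those in Nlrp4b mark CCAAT, which occurs 2 times. The number of CG steps in these runs was 10 in Rps27, 4 in Rpl10l and 26 in Rpl9, and 1 in Pabpn1l, 0 in Nlrp4b and 2 in Nlrp4a.

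Over all coding members, promoters of the table could be matched for 8255 of 10286 (80.3%). The ratio of observed to expected CpG in the 300 bases from 250 before to 50 after the start had a median of 0.81 in risen, 0.73 in fallen and 0.83 in uncalled genes, and of 0.34 in the 113 matched genes that fell by 3 or more on the log2 scale. The median over all 32851 promoters of the table was 0.38. Of 8 letter strings searched on both strands, CCGGAA, the core read by ETS factors, was in 35.7% of risen, 24.6% of fallen and 32.9% of uncalled promoters, and in 56.5% of those of 85 matched nucleolar genes, against 14.9% of all promoters of the table. The E-box CACGTG was in 12.9%, 8.5% and 10.3%, against 7.2% of all. The GC box GGGCGG was in 65.1%, 60.1% and 70.1%, against 35.7% of all. The remaining strings were CCAAT (40.8% of risen and 40.6% of fallen promoters, 37.4% of all), TATAAA (6.9% and 7.7%, 13.6% of all), GGATTA, the letters read by Otx and Obox proteins (6.8% and 6.0%, 7.1% of all), AAGATGGCG (4.1% and 2.8%, 1.4% of all) and TGACGTCA (4.3% and 2.7%, 1.8% of all). A match describes letters only and marks no bound factor, and none of these shares was tested. Gene length differed too: the median span was 17846 bp for risen, 30484 bp for fallen and 28325 bp for uncalled coding genes, but 13161 bp for the 141 genes with falls of 3 or more on the log2 scale and 12853 bp for the 568 with rises as large.

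RNAs that accompany ribosome production were higher in part. Host genes of small nucleolar RNAs, which guide the modification of ribosomal RNA, rose in 12 of 16 cases and fell in none, among them Snhg17 from 0.293 and 0.115 FPKM early to 2.74 and 1.70 FPKM late and Epb41l4aos from 1.10 and 1.13 FPKM early to 3.22 and 7.61 FPKM late. Of these 16 hosts 9 had 1 FPKM in all 4 columns, and 6 of the 9 rose. Snhg3 had 21.4 and 17.3 FPKM early and 37.4 and 61.4 FPKM late and was not called (adjusted p = 0.31, limma). Of 204 snoRNA rows 109 were higher and 7 lower. These counts include rows of the U3 RNA, whose near-identical copies make single rows unreliable. How many of the calls are U3 rows was not counted. Rmrp, the RNA of the RNase that cuts the ribosomal RNA precursor, had 99.3 and 135 FPKM early and 899 and 1744 FPKM late (3.43 ± 0.47 (SE), adjusted p = 5.8e-05), with both late columns above the early ones but far from each other. Of 7 polymerase III and telomerase RNAs, Rmrp among them, 4 rose and none fell, and the number that rose ranged from 1 without late replicate 2 to 6 without late replicate 1, with 2 without early replicate 2. It was 2 after scaling by the median of ratios and 6 after scaling to equal coding sums. The U3 RNA rows show what near-identical copies can do to such values. Each U3 gene has 2 rows: for Rnu3b2 the first row was at 0 and 0 FPKM early and 68.6 and 89.0 FPKM late, while the second was at 16.4 and 17.2 FPKM early and 0.0748 and 0.117 FPKM late. Only the sum over the 10 U3 rows is therefore read here, at 64.9 and 62.0 FPKM early and 265 and 326 FPKM late.

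Most translation initiation factors rose as well. Of 55 listed initiation factor genes 52 were members, and 32 rose, 10 fell and 10 were not called (median 1.20). The eIF3 complex, which joins the small subunit to the messenger, had 13 of 14 members higher: Eif3c went from 6.69 and 7.28 FPKM early to 99.3 and 87.1 FPKM late (3.64 ± 0.37 (SE), adjusted p = 5.1e-06), Eif3a rose by 3.10 and Eif3l by 2.89. Eif1b, a start codon scanning factor, fell from 126 and 123 FPKM early to 21 and 25.8 FPKM late (log2 change -2.39), and the exchange factor subunit Eif2b1 fell by 1.82. Cytosolic tRNA synthetases and their scaffold had 9 of 21 members higher and 4 lower, beside 35.6% higher and 40.0% lower over all coding members. Of the 18 at 1 FPKM or more in all 4 columns 6 were higher and 4 lower (median -0.02). Rars, the arginine enzyme, had 4.29 and 5.96 FPKM early and 45.8 and 44.5 FPKM late (3.04), and Mars rose by 2.70. The leucine enzyme Lars fell from 14.7 and 13.1 FPKM early to 1.12 and 1.03 FPKM late (-3.19), and Sars by 2.61.

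Protein folding and turnover genes were mixed too. In the CCT chaperonin, the ring that folds actin and tubulin, 6 of 8 subunits rose and none fell. Cct6a had 1.53 and 2.03 FPKM early and 34.3 and 31.8 FPKM late (3.89 ± 0.12 (SE), adjusted p = 6.5e-10), Cct4 rose by 2.61 and Tcp1 by 2.31. Over the list of 28 chaperones 11 rose and 3 fell, the falls being Dnajb1 (-2.02), Ahsa1 (-1.42) and Hspe1 (-1.19). Over all coding members 35.6% were higher and 40.0% lower. In the fit without the zygote 14 of the chaperones rose and 5 fell. Hsp90aa1 had 141 and 122 FPKM early and 71.5 and 87.7 FPKM late and missed the call (adjusted p = 0.056, limma) with zygote columns at 175 and 412 FPKM, and passed without them (adjusted p = 0.00083). Proteasome genes had 20 of 44 members higher and 13 lower, and of the 37 at 1 FPKM in all columns 13 were higher and 13 lower. Psmb5, a catalytic subunit, rose from 0.693 and 1.11 FPKM early to 30.2 and 35.8 FPKM late (4.59), whereas Psmd10, an assembly chaperone of the cap, fell from 15.9 and 15.2 FPKM early to 1.82 and 1.34 FPKM late (-2.96).

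Mitochondrial genes of the nucleus rose more often than they fell. Import subunits, which pass proteins through the mitochondrial membranes, had 16 of 23 members higher and 5 lower (median 2.04). Of the 18 at 1 FPKM or more in all 4 columns 12 were higher and 4 lower (median 1.497). The receptor Tomm20 went from 2.07 and 1.69 FPKM early to 47.3 and 54.9 FPKM late (4.44 ± 0.14 (SE), adjusted p = 6.8e-10), and the small chaperone Timm10 from 0.567 and 1.20 FPKM early to 27.2 and 33.1 FPKM late (4.50). Timm22, the carrier translocase, rose by 3.47, while Timm8a2, a relative of the small chaperones, fell by 1.91. Of 88 listed genes of the respiratory chain and ATP synthase 81 were members, 46 rose and 15 fell (median 0.94). Of the 62 at 1 FPKM or more in all 4 columns 32 rose and 12 fell (median 0.64). Uqcc3, an assembly factor of complex III, was listed at 0 in both early columns and had 27.0 and 30.1 FPKM late. Cox7c of complex IV had 0.819 and 1.25 FPKM early and 16.2 and 18.3 FPKM late (3.54), and Uqcrc1 and Atp5o rose by 3.46 and 2.80. Sdha, the flavoprotein of complex II, fell from 36.8 and 32.1 FPKM early to 6.77 and 7.95 FPKM late (-2.15), and Ndufa10 and Ndufa8 of complex I by 1.72 and 1.38. Mitochondrial ribosomal proteins had 38 of 73 members higher and 17 lower, with Mrpl20 at 4.05 and Mrpl48 at -2.61. Of the 60 at 1 FPKM or more in all 4 columns 28 were higher and 15 lower (median 0.35). Transcripts of the mitochondrial genome had medians of 30.1 FPKM early and 75.5 FPKM late, and 8 of 37 were called higher and none lower. That count rests on few columns, since it was 0 without late replicate 1, 2 without early replicate 1 and 20 with the 2 stages fitted alone.

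Metabolic gene lists differed in their balance of rises and falls. Of 36 genes of nucleotide, polyamine and one-carbon synthesis 34 were members, 23 rose and 7 fell (median 2.06). Ppat, the committing enzyme of purine synthesis, had 1.45 and 1.22 FPKM early and 50.0 and 55.2 FPKM late (4.85 ± 0.11 (SE), adjusted p = 1.7e-10). The nucleoside diphosphate kinase Nme2 went from 1.55 and 2.38 FPKM early to 88.3 and 165 FPKM late (5.64), and Psat1 of serine synthesis from 0.669 and 0.902 FPKM early to 41.7 and 31.0 FPKM late (4.83). Only 23 of the 34 had 1 FPKM in all 4 columns, and among those 14 rose and 5 fell with a median of 1.16. The mitochondrial one-carbon genes Mthfd2 and Shmt2 fell, Mthfd2 from 66.6 and 61.4 FPKM early to 16.8 and 17 FPKM late (-1.89) and Shmt2 by 1.15. Ahcy, which removes the by-product of methylation, fell by 2.30 from 5.25 and 5.02 FPKM early to 0.50 and 0.806 FPKM late.

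Glycolysis and pyruvate use had 16 of 34 members lower and 9 higher (median -0.68), beside 40.0% lower and 35.6% higher over all coding members. Of the 27 at 1 FPKM or more in all 4 columns 12 were lower and 6 higher. Ldhb, the lactate dehydrogenase subunit of oocytes, fell from 469.8 and 417 FPKM early to 51.8 and 56.1 FPKM late (-3.03 ± 0.42 (SE), adjusted p = 6.1e-05), and Tpi1 from 26.5 and 22.3 FPKM early to 2.65 and 3.40 FPKM late (-2.83). The 2 malate dehydrogenases moved apart: cytosolic Mdh1 went from 17.4 and 15.8 FPKM early to 1.64 and 2.89 FPKM late (-2.67), and mitochondrial Mdh2 from 2.00 and 2.31 FPKM early to 14.5 and 11.3 FPKM late (2.33). Pgam1 of glycolysis and Idh2 of the mitochondrion rose by 2.90 and 3.31, and the pyruvate carrier subunit Mpc2 by 2.33. Genes of the amino acid response had 10 of 22 members lower and 7 higher, beside 40.0% lower and 35.6% higher over all coding members. Of the 16 at 1 FPKM in all columns 6 were lower and 5 higher. Cebpb fell from 18.6 and 12.3 FPKM early to 2.60 and 1.87 FPKM late (-2.53), Ddit3 by 1.89 and the glycine transporter Slc6a9 by 2.25. Trib3, a target of the same response, rose by 2.80, and the amino acid transporter Slc7a5 by 1.90.

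Genes of nuclear transport changed in both directions. Of 24 importins and exportins 13 rose and 6 fell (median 0.73), beside 35.6% higher and 40.0% lower over all coding members. Of the 21 at 1 FPKM or more in all 4 columns 10 rose and 6 fell (median 0.54). Ipo7, an importer of ribosomal proteins, had 2.05 and 2.33 FPKM early and 56.3 and 48.0 FPKM late (4.29 ± 0.12 (SE), adjusted p = 3.3e-10). Tnpo3, which imports splicing factors, went from 0.732 and 0.875 FPKM early to 26.1 and 20.0 FPKM late (4.16), and Xpot, the exporter of tRNA, from 0.438 and 0.416 FPKM early to 12.8 and 11.7 FPKM late (3.78). Besides Kpna7, Ipo8 fell by 1.55 and Kpna3 by 0.79. Of 26 nucleoporins, the building blocks of the pore, 12 fell and 8 rose, beside 40.0% lower and 35.6% higher over all coding members. Nup37 went from 37.2 and 31.9 FPKM early to 6.04 and 5.53 FPKM late (-2.48). Ranbp2 went from 6.59 and 6.94 FPKM early to 76.8 and 69.5 FPKM late (3.34). Spliceosome proteins had 16 of 42 members higher and 7 lower, beside the same 35.6% higher and 40.0% lower over all coding members. Without the zygote 19 spliceosome proteins were higher and 11 lower. Snrpb of the Sm ring rose from 1.02 and 0.874 FPKM early to 21.5 and 22.1 FPKM late (3.95), and Prpf6 of the tri-snRNP fell from 54.1 and 53.1 FPKM early to 11.1 and 9.94 FPKM late (-2.30).

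Among genes of the cell cycle 26 of 49 fell and 11 rose (median -0.65). Ccne1, the cyclin E of S phase entry, was the largest rise of that list, from 5.42 and 5.36 FPKM early to 111 and 99.8 FPKM late (4.17 ± 0.10 (SE), adjusted p = 1.7e-10). Cdk4 went from 0.807 and 0.575 FPKM early to 9.82 and 9.28 FPKM late (3.08), Cdc25c rose by 3.06 and the checkpoint kinase Chek2 by 3.10. Chek1, the other checkpoint kinase, fell from 106 and 112 FPKM early to 21.7 and 31.3 FPKM late (-2.04). Aurkc, an Aurora kinase of meiosis, fell from 95.3 and 91.9 FPKM early to 8.48 and 9.20 FPKM late (-3.33 ± 0.10 (SE), adjusted p = 5.2e-10) and the securin Pttg1 by 2.63. DNA replication genes had 21 of 54 members lower and 17 higher, beside 40.0% lower and 35.6% higher over all coding members. Of the 50 at 1 FPKM or more in all 4 columns 21 were lower and 14 higher. After scaling to equal coding sums 18 of the 54 were lower and 19 higher. Rpa3 and Rpa2, subunits of the same single-strand binding complex, changed by -2.38 and 1.83, and the helicase cofactor Gins3 went from 1.51 and 2.16 FPKM early to 29.1 and 29.6 FPKM late (3.69). Slbp, which binds histone messengers, fell from 194 and 178 FPKM early to 36.2 and 43.4 FPKM late (-2.21). Core histone rows had 23 of 59 members higher and 1 lower, and the number higher depended on the columns used: it was 14 without early replicate 2 or without late replicate 2, 34 without late replicate 1, 33 after scaling to equal coding sums and 16 after scaling by the median of ratios. The share called higher over all coding members was 35.6%. The summed level of core histones was 11469 and 9589 FPKM early and 8693 and 15529 FPKM late, so the late columns lay on either side of the early ones. Histone genes are near-identical copies, and Hist2h2ab had 2.05 and 1.78 FPKM early and 8.20 and 14.6 FPKM late (2.25) and Hist1h3c 25.4 and 18.9 FPKM early and 55.1 and 102 FPKM late (1.76).

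Of 53 members of the list of chromatin regulators 20 were higher and 21 lower, beside 35.6% higher and 40.0% lower over all coding members. Of the 45 at 1 FPKM or more in all 4 columns 14 were higher and 19 lower (median -0.25). The fallen ones included writers and guides of silencing: Uhrf1, which leads Dnmt1 to DNA, went from 152 and 155 FPKM early to 22.4 and 20.9 FPKM late (-2.80 ± 0.21 (SE), adjusted p = 5.5e-07), Eed of Polycomb complex 2 from 68.1 and 66.2 FPKM early to 15.0 and 14.7 FPKM late (-2.14), and the H3K9 methyltransferase Setdb1 fell by 1.94. The risen ones included demethylases of histone H3. Kdm4c went from 0.399 and 0.325 FPKM early to 17.7 and 16.7 FPKM late (4.36 ± 0.10 (SE), adjusted p = 1.7e-10), Kdm5b from 1.58 and 1.76 FPKM early to 38.9 and 29.0 FPKM late (3.98) and Kdm5a rose by 3.90. Cbx3, a heterochromatin protein, rose from 0.651 and 0.713 FPKM early to 21.8 and 18.9 FPKM late (4.14). The median change of the list was -0.14, beside -0.20 for all members, and both became positive after scaling to equal coding sums, when 22 were higher and 16 lower.

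Of 47 listed lineage and pluripotency genes 29 were members, 14 rose and 9 fell, but of the 18 at 1 FPKM in all columns 7 rose and 6 fell. Pou5f1, a core pluripotency factor that the egg also carries, fell from 154 and 141 FPKM early to 35.4 and 41.1 FPKM late (-1.94 ± 0.15 (SE), adjusted p = 7.1e-07), and Klf17 from 314 and 297 FPKM early to 134 and 124 FPKM late (-1.24). Dppa4, a chromatin factor that works with Dppa2, rose from 4.43 and 4.69 FPKM early to 119 and 138 FPKM late (4.67 ± 0.13 (SE), adjusted p = 3.3e-10), and Dppa5a from 8.56 and 11.2 FPKM early to 61.4 and 69.7 FPKM late (2.68). Of p53 and damage genes 7 of 17 rose and 2 fell, or 4 without the zygote, with a median of 0.56. Of the 13 at 1 FPKM in all columns 4 rose and 2 fell (median 0.11). Trp53 itself had 4.30 and 4.15 FPKM early and 4.23 and 3.57 FPKM late and was not called (adjusted p = 0.59, limma), Btg2 fell from 8.05 and 7.04 FPKM early to 1.3 and 1.29 FPKM late (-2.16), and Sesn1 and Gadd45a rose by 2.02 and 1.43. In the list of actin, tubulin and adhesion genes 20 of 33 members fell and 3 rose (median -0.76). The tubulin Tubb3 went from 315 and 283 FPKM early to 13.1 and 13.0 FPKM late (-4.47 ± 0.16 (SE), adjusted p = 2.2e-09), and Tubb2b and Tubb2a fell too (log2 changes -3.22 and -2.74). Tubb4b, at 249 and 220.1 FPKM early and 211 and 247 FPKM late, was not called, and Tubb5 rose from 13.0 and 14.1 FPKM early to 26.0 and 25.2 FPKM late (0.89). Cldn6, a tight junction protein of the first epithelium, rose from 0.219 and 0.564 FPKM early to 12.1 and 12.4 FPKM late (3.87).

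Related genes were also set side by side in 24 pairs, with a gene known from oocytes first in most of them and a relative second. Both genes were members in 23 pairs. The first gene fell in 20 pairs and rose in 1, while the second rose in 5, fell in 10 and was not called in 8. In 22 of the 23 pairs the log2 change of the second gene lay above that of the first, a difference that was not tested. Opposite calls, with the first gene lower and the second higher, occurred in 4 pairs. For the poly(A)-binding proteins, Pabpc1l went from 97.6 and 93.0 FPKM early to 6.61 and 7.72 FPKM late and Pabpc1 from 0.873 and 0.985 FPKM early to 18.3 and 11.2 FPKM late (log2 change 3.38 ± 0.19 (SE), adjusted p = 4.7e-08). For the oxidases of methylcytosine, Tet3 of the egg went from 47.7 and 35.0 FPKM early to 12.1 and 5.26 FPKM late and Tet1 from 0.275 and 0.252 FPKM early to 7.51 and 4.09 FPKM late (log2 change 2.99 ± 0.20 (SE), adjusted p = 1.9e-07). For the kinases that hold back Cdk1, Wee2 had 379.8 and 366 FPKM early and 91.6 and 101 FPKM late and Wee1 1.34 and 2.60 FPKM early and 4.73 and 4.06 FPKM late (log2 changes -1.95 and 1.03). The fourth pair was Obox1 with Obox6. In mean FPKM, the first gene stood above the second in 17 of 23 pairs at the early stage and in 11 at the late stage.

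In 8 pairs both genes fell. Bcl2l1, the relative of Bcl2l10, fell by 1.27, and Ccnb1 fell by 1.05 while Ccnb3 fell by 1.83. Eif4e, the general cap-binding protein, had 46.5 and 47.0 FPKM early and 55.3 and 54.8 FPKM late and was not called, while its oocyte form Eif4e1b fell from 171 and 175 FPKM early to 25.0 and 25.9 FPKM late (-2.74). Npm2, the nucleoplasmin that remodels sperm chromatin, had 375 and 368 FPKM early and 99.5 and 99.0 FPKM late, a log2 change of -1.90 that was not called (adjusted p = 0.095, limma). Its zygote columns, at 35.7 and 713 FPKM, were far apart, and with the 2 stages fitted alone the change was called (adjusted p = 0.00018, limma). The glucose transporters were the pair that differed from the other 22. Early, Slc2a3 was the scarcer gene of its pair, as Ccnb3 was in its pair with Ccnb1. Why the pair of glucose transporters differed was not tested. Slc2a3 rose from 0.196 and 0.168 FPKM early to 2.80 and 2.41 FPKM late (2.18) and Slc2a1 fell from 11.8 and 13.2 FPKM early to 2.38 and 2.50 FPKM late (-2.14).

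**Figure D5:**
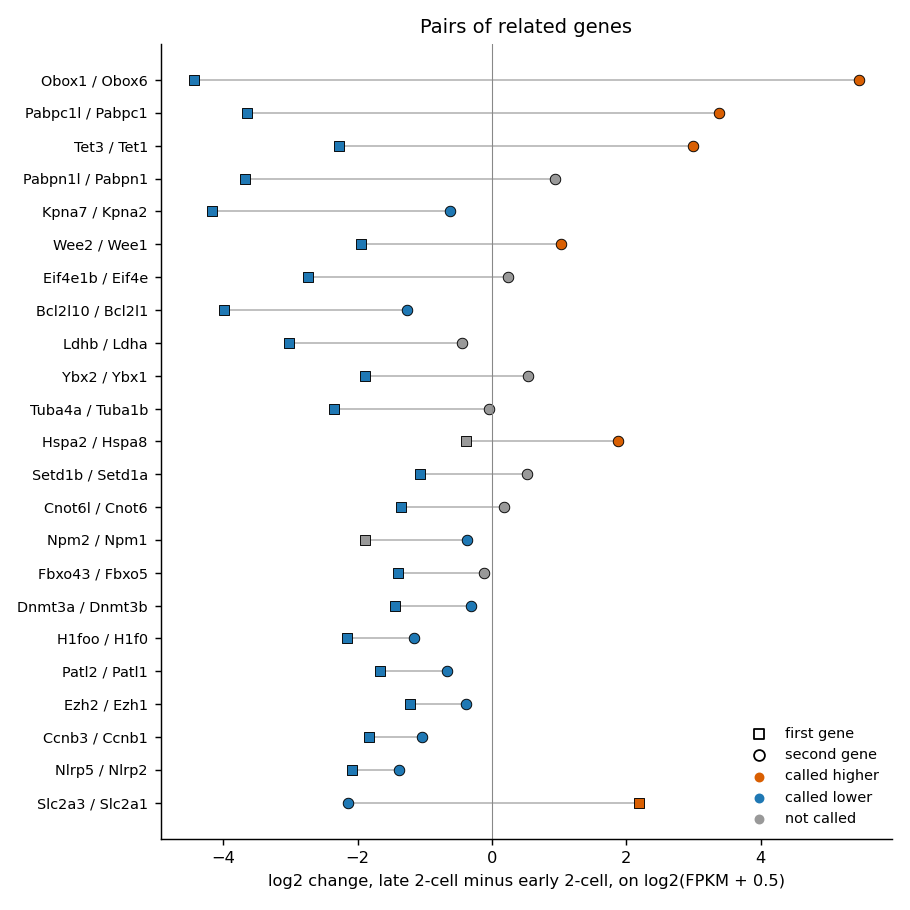
Log2 change from early to late 2-cell embryos (x axis, on log2(FPKM + 0.5)) of the first gene (square) and second gene (circle) of each of 23 pairs (y axis), coloured by call. In 22 pairs the circle lies to the right of the square. The exception is Slc2a3 with Slc2a1.

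Of the 15 steepest coding rises 3 belonged to the lists above. Tomm5, a small subunit of the import pore of the outer mitochondrial membrane, was the steepest, from 0 and 0.271 FPKM early to 61.3 and 61.4 FPKM late (6.64 ± 0.21 (SE), adjusted p = 8.3e-10), and Pdxk, the pyridoxal kinase, listed with the nucleotide and one-carbon genes, went from 0.625 and 0.496 FPKM early to 85.5 and 84.1 FPKM late (6.33). The other listed one was Uqcc3. Stmn3, a stathmin that destabilizes microtubules, was listed at 0 in both early columns and had 36.5 and 43.9 FPKM late. Rab20, a vesicle GTPase, went from 1.0 and 0.691 FPKM early to 97.5 and 116 FPKM late (6.32 ± 0.14 (SE), adjusted p = 1.2e-10). Timd2, a ferritin receptor, had 0.306 and 0.388 FPKM early and 59.3 and 65.8 FPKM late, and Folr1, a folate receptor, 0.0885 and 0.128 FPKM early and 35.3 and 33.4 FPKM late. Ppp2cb, a catalytic subunit of phosphatase 2A, went from 0.522 and 0.842 FPKM early to 65.3 and 78.4 FPKM late (5.94). Epcam, an adhesion protein of epithelia, had 0.124 and 0.459 FPKM early and 36.9 and 48.2 FPKM late, and the zinc importer Slc39a4 0.0672 and 0 FPKM early and 30.2 and 29.7 FPKM late. The late columns of all of these lay above both early ones, which the rule for naming the steepest changes required. Among the steepest falls were the interferon-induced type genes Ifit1bl2, from 147 and 138 FPKM early to 3.65 and 4.08 FPKM late (-5.03 ± 0.19 (SE), adjusted p = 2.4e-09), and Epsti1, from 53.9 and 46.5 FPKM early to 1.55 and 2.58 FPKM late (-4.33). Fam90a1a, of a tandem family, went from 51.5 and 50.4 FPKM early to 1.74 and 1.70 FPKM late (-4.54), and the receptor Gpr1 from 40.8 and 33.3 FPKM early to 1.84 and 1.37 FPKM late (-4.16).

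Noncoding loci had changes of the same size. The lncRNA Gm14798 rose from 0 and 0.123 FPKM early to 13.6 and 15.6 FPKM late (4.76 ± 0.16 (SE), adjusted p = 1.5e-09), and 1600025M17Rik from 0.0938 and 0 FPKM early to 9.48 and 11.4 FPKM late (4.32). Gm26917 rose from 6.26 and 6.57 FPKM early to 394 and 286 FPKM late. Falls included Gm36307, from 41.6 and 39.7 FPKM early to 1.3 and 1.63 FPKM late (-4.39 ± 0.19 (SE), adjusted p = 7.9e-09), and Gm44574, from 218 and 217 FPKM early to 15.4 and 11 FPKM late (-4.01). The unannotated locus XLOC_049794 had the largest rise of that class, from 0.406 and 0.412 FPKM early to 112 and 123 FPKM late (7.02 ± 0.11 (SE), adjusted p = 4.1e-11), followed by XLOC_029217, listed at 0 in both early columns and at 20.7 and 28.7 FPKM late. XLOC_011533 went the other way, from 36.9 and 21.1 FPKM early to 0 in both late columns. Of 30 rows of Platr lncRNAs, noncoding RNAs linked to pluripotency, 7 were members, of which 5 rose and 2 fell (median 1.69). Of the 4 at 1 FPKM or more in all columns 2 rose and 2 fell (median 0.42). Platr25 had 3.20 and 3.94 FPKM early and 12.2 and 12.8 FPKM late (1.69), Platr31 rose by 1.62 and Platr14 fell by 0.78.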

How the data were processed

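Ribosomal RNA was removed from embryo RNA, and paired reads of 150 bases came from 1 of 2 library kits (TruSeq Stranded Total RNA; SMARTer version 2 for low input), per the labels' protocols. The labels do not tie a kit to a sample. The submitters' processing notes list Cuffdiff 2.2.1, StringTie 1.3.4d, Cufflinks, HISAT2 2.1.0, cutadapt 1.18 and build GRCm38, without roles. The deposited values are FPKM computed by the authors, with denominator and filters not stated. At the best step, at most 27.0% of low values of single-exon rows lay within 0.05 of a whole number of reads, so reads were not recovered, and absolute depth and counting error are unknown. Of 43 columns of per-sample values, 9 could not be tied to a sample and were not used.

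Rows with at least 1 FPKM in 2 of the 16 stage columns (19692) were fitted on log2(FPKM + 0.5) with limma 3.58.1 (lmFit, eBayes with trend) in R 4.3.3, all 8 stages in 1 fit, two-sided, with Benjamini-Hochberg adjustment over all rows; a row was called under 0.05. A fold change on this scale understates the change of low genes. Of 54446 Ensembl rows 54409 were found in GENCODE M21, which gave symbols and classes. The fit was checked on simulated data. Python 3.11.15, pandas 2.3.3 and Matplotlib 3.10.9 made tables and figures. Promoters came from a RefSeq table of build GRCm38.p6.

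Members and gene lists were chosen with earlier results of these data known, so no list is independent evidence of a direction. Of each list up to 8 members are named: those called with the largest changes in each direction and a mean of at least 2 FPKM in the higher stage, then uncalled ones. The pairs and the cell type markers could be named as well, and so could the 15 largest coding changes and the 5 largest lncRNA and XLOC changes each way with 5 FPKM or more in the higher stage and no overlap of columns. Rnu3b2 and the promoter of Nlrp4a were chosen after their values were seen, as were some members of the maternal and 2-cell lists beyond 8. The fit was repeated with 0.1 or 1 FPKM as pseudocount, with all rows, with 2 scalings (equal coding sums, median of ratios), with the replicate number as a block, on the 2 stages alone and with each replicate left out, and members at 1 FPKM in all 4 columns were counted apart. A fit without the zygote was added after the data were seen, because its columns differed most: 11.9% of members were over 1 apart on the log2 scale there, against 2.51% early and 3.08% late.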

Additional observations from a re-analysis of the deposited data

How the results depend on the processing

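Restricting members to the 9255 with 1 FPKM or more in all 4 columns left 6338 calls, 2705 higher and 3633 lower. Every other alternative kept the 3 counts of calls within 1.5 times of 11240, 5084 and 6156. Leaving out a replicate gave 10139 to 10317 calls, 4539 to 4765 higher and 5424 to 5778 lower, with the lone sample of the stage assumed to vary like the other groups. Same-numbered replicates were not treated as paired in the fit. The correlation of their residuals was -0.03 across rows, which with 2 columns a stage cannot decide whether they were paired. With the replicate number as a block 11170 members were called, 5066 higher and 6104 lower. Of the 11240 calls 11122 were also made there, and the calls of the named genes Bms1, Dnmt3b, Npm1 and Polr3f were lost. Without the zygote columns 11930 were called, among them 11218 of the 11240. For the 321 genes allowed by the naming rule and present once, the alternatives gave 3844 values. No called gene reversed its direction in them. The sign of an uncalled one could change, as for Rps15a, at 0.29 in the main fit and -0.05 without early replicate 2. In at least 1 alternative 17 called genes lost their call: Bms1, Dnmt3b, Eif3j2, Ezh1, Gm10076, Hist1h2aa, Mphosph10, Npm1, Patl1, Polr3f, Rn7sk, Rny3, Rrp8, Setd1b, Terc, Usp17lc and Zfp352. Why these calls were lost was not tested. Of 888 list counts under alternatives 864 stayed within 1.5 times. With 2 columns a stage and no counts, small changes and levels near 1 FPKM are the least certain.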
